A study of Mus musculus with 4 samples.

Results

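Dppa2, Dppa3, Dppa4, Dppa5a, Fbxo15 and Tdh are genes used as markers of mouse embryonic stem cells. They were taken by name, 6 of the 22492 gene symbols with an expression value, and each had 1 row. Cells that lacked Tet1, Tet2 and Tet3 (TetTKO) were set against unmodified cells (WT), both of the E14Tg2a line, a male embryonic stem cell line. The TetTKO line was made with CRISPR by transient transfection of Cas9 and guide vectors, brief puromycin selection and picking of clones in medium with MEK and GSK3 inhibitors (2i). Which clone or clones were sequenced is not given in the sources used here. Both lines were then kept in 15% serum and LIF at 1000 units/ml for at least 17 days. Each genotype had 1 RNA-seq and 1 whole-genome bisulfite (WGBS) library, so no value has a replicate check, no test was run, and "higher" or "lower" describes these libraries only.

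Tet enzymes oxidise 5-methylcytosine, the first step of active DNA demethylation, and bisulfite sequencing reads the oxidised form 5-hydroxymethylcytosine as methylated. Dppa2 and Dppa4 are DNA-binding proteins with a SAP domain that act as a pair at promoters and switch on the transcription factor gene Dux. Dppa3, also called Stella, is a maternal and germ cell protein that shields methylation from Tet3 in the zygote and can displace Uhrf1, the protein that brings Dnmt1 to replicating DNA. Dppa5a encodes a KH-domain RNA-binding protein. Fbxo15 encodes an F-box protein of SCF ubiquitin ligases and is a target of Pou5f1 and Sox2. Tdh encodes threonine dehydrogenase, the mitochondrial enzyme that starts the breakdown of threonine on which mouse embryonic stem cells depend.

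The WGBS libraries held 150076506 CpG read calls in TetTKO and 132749634 in WT, with a median coverage of 10 reads per CpG in TetTKO and 8 in WT. Mean methylation over CpGs was 65.0% in TetTKO and 69.5% in WT. Tet1 RNA was 4.36 FPKM in TetTKO and 15.1 FPKM in WT, Tet2 was 4.13 FPKM in TetTKO and 14.9 in WT, and Tet3 was 0.27 FPKM in TetTKO and 0.32 in WT. Tet3 was too low to check the label. FPKM counts fragments per transcript length and library size, so levels of different genes below are per length. The 5 stem cell markers were abundant in both libraries, with a sum of 1890.0 FPKM in TetTKO and 2234 in WT. All 5 were lower in TetTKO, where 51% of all genes measured were, at a median log2 difference of -0.44. The 5 differences ran from -0.88 to -0.03, and 1 of these genes, Nanog, lies on chromosome 6. A wider list of 25 markers, given below, had a median of -0.06. Among the 5, Pou5f1 had 1092 FPKM in TetTKO and 1178 in WT. All 5 primitive endoderm markers were present at low levels, at a sum of 7.21 FPKM in TetTKO and 2.01 in WT, and the 5 fibroblast and feeder markers summed to 2.33 FPKM in TetTKO and 1.58 in WT. Trophoblast markers summed to 35.6 FPKM in TetTKO and 19.0 in WT, nearly all of it Krt8, and neuroectoderm markers to 42.1 FPKM in TetTKO and 66.5 in WT, mostly Tubb3. Mesoderm markers summed to 3.30 FPKM in TetTKO and 1.40 in WT. Of the other trophoblast markers, Gcm1 had 1.41 FPKM in TetTKO and 0.15 in WT, Cdx2 had 0.92 in TetTKO and 0.27 in WT, Hand1 had 0.16 in TetTKO and 0.10 in WT, and Elf5 had 0.02 in TetTKO and was listed at 0 in WT. The part of these cells in the results below was not tested. Chromosome 6, which carries Dppa3, stood apart. Its WGBS coverage was 0.983 of the median autosome in TetTKO and 1.34 in WT, while the range over the other 18 autosomes was 0.983 to 1.02 in TetTKO and 0.987 to 1.02 in WT. Its genes had a median log2 difference of -0.43, while medians of those 18 ran from -0.05 to 0.09.

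None of the 6 genes differed 2-fold in RNA between the libraries. Differences are log2((TetTKO + 1)/(WT + 1)) of FPKM, and 10984 genes reached 1 FPKM in 1 or both libraries. Of these, 1.77% were 2-fold or more higher in TetTKO and 0.847% were lower by as much. Tdh had the largest difference of the 6 and was lower, Dppa4 and Dppa3 were lower by less, Dppa2 was higher, and Fbxo15 and Dppa5a lay close to their WT level. In bulk RNA, fewer cells of a type and less RNA per cell cannot be told apart.

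Tdh (mm9 chromosome 14, 64111184 to 64127929) had 208 FPKM in TetTKO and 330.2 FPKM in WT. It was 1.59-fold lower, a log2 difference of -0.67, and 3.54% of all genes measured had a lower one. Among the 2562 genes with a mean of at least 30 FPKM, 5.04% were at least 1.5-fold lower in TetTKO. Tdh was therefore in the outer tail of these libraries without reaching the 2-fold rule. Its chromosome had a median of 0.01.

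The SAP-domain pair went opposite ways. Dppa2 (chromosome 16, 48310387 to 48319626) had 75.3 FPKM in TetTKO and 56.3 FPKM in WT, 1.34-fold higher, with a log2 difference of 0.41. Dppa4 (chromosome 16, 48283848 to 48294405) had 133 FPKM in TetTKO and 172 FPKM in WT, 1.30-fold lower, with a log2 difference of -0.37. Dppa4 was the more abundant of the pair in both libraries. The intervals lie 15981 bp apart with no other listed gene between them. Of all genes measured, 21.8% differed by more than Dppa2 and 25.3% by more than Dppa4 in either direction. Among genes with a mean of at least 30 FPKM, 95.2% had a lower log2 difference than Dppa2 and 12.8% a lower one than Dppa4. Dppa2 thus lay toward the upper end of abundant genes, though not among all genes measured.

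Dppa3 (chromosome 6, 122576442 to 122580289) had 37.0 FPKM in TetTKO and 46.4 FPKM in WT, 1.25-fold lower. Its log2 difference of -0.32 lay above the median of its chromosome, and measured from that median it was 0.11, so its direction depended on this choice. Its neighbours on either side within 100 kb, also stem cell genes, were lower too. Gdf3, a TGF-beta family ligand, had 42.0 FPKM in TetTKO and 57.3 in WT, and Nanog, a core pluripotency factor, had 71.0 FPKM in TetTKO and 116 in WT. A difference of this locus and one of the whole chromosome cannot be told apart at Dppa3.

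Dppa5a (chromosome 9, 78214861 to 78216006) was by far the most abundant of the 6, with 3344 FPKM in TetTKO and 3211 FPKM in WT. It ranked 24th of all genes in TetTKO and 27th in WT, and its log2 difference was 0.06. Fbxo15 (chromosome 18, 85104417 to 85150784) had 190 FPKM in TetTKO and 167 FPKM in WT, a log2 difference of 0.19. Of all genes, 84.1% differed by more than Dppa5a and 54.0% by more than Fbxo15. Dppa5a and Dppa3 have processed copies elsewhere in the mouse genome, and how reads that match several copies were counted is not given in the sources used here. In WT the order of levels was Dppa5a, Tdh, Dppa4, Fbxo15, Dppa2 and Dppa3. In TetTKO Fbxo15 stood above Dppa4, the only exchange of neighbours in that order. With 1 library per genotype, whether neighbouring levels differ beyond their spread is unknown.

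**Figure D1:**
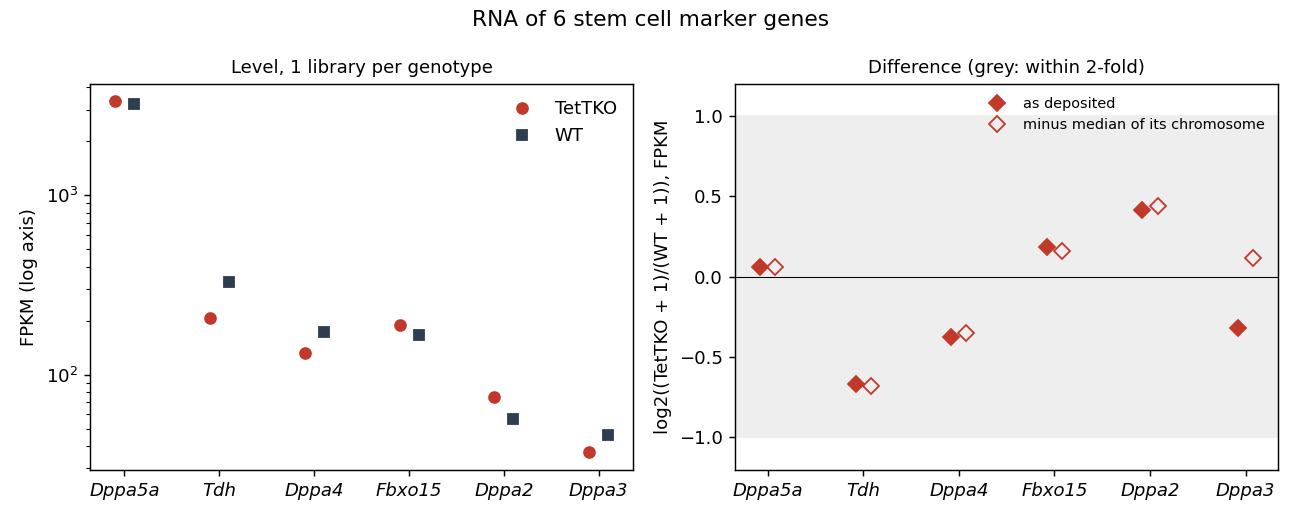
RNA of the 6 genes in the TetTKO and WT libraries. The left panel gives FPKM on a log axis (circles TetTKO, squares WT), and the right panel the log2 difference as deposited (filled) and after subtracting the median of the gene's own chromosome (open). All 6 stay inside the grey 2-fold band, Tdh lies lowest at -0.67, and Dppa3 lies at -0.32 as deposited and at 0.11 relative to chromosome 6.

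The clearest methylation difference among the 6 genes was at Tdh, whose interval was more methylated in TetTKO along nearly its whole length. Averaged over 201 CpGs, it stood at 33.2% in TetTKO and 17.7% in WT, a difference of 15.5 percentage points. Pooled over reads, the share methylated was 33.0% of 2284 read calls in TetTKO (exact 95% interval 31.1 to 35.0) and 16.7% of 1940 in WT (15.1 to 18.4). These intervals cover counting error only and are too narrow even for that, because 1 read enters at each CpG it covers and copies made by PCR are not separate molecules. Of 20474 gene intervals with at least 10 CpGs, 2.8% were at least 10 points higher in TetTKO and 5.99% at least 10 points lower. Among the 2534 intervals under 30% in WT, 11.5% were at least 10 points higher, so intervals chosen as low in WT gained more often in general. A difference smaller than that of Tdh was found in 99.2% of all intervals.

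Both ends of Tdh, each taken as the last 500 bp of the interval with the 1000 bp next to it, were also higher in TetTKO. The lower-coordinate end had 78.1% in TetTKO and 66.8% in WT over 18 CpGs, a difference of 11.2 points that was 1.40 points when only 500 bp outside and 200 bp inside were taken. The higher-coordinate end had 23.7% in TetTKO and 11.2% in WT over 26 CpGs. Of 39269 ends with at least 5 CpGs, 9.4% were at least 10 points higher in TetTKO and 16.5% at least 10 points lower.

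At single CpGs, 145 of the 201 in the Tdh interval were higher in TetTKO, 22 were lower and 34 were equal. CpGs without any methylated read numbered 37 in TetTKO and 83 in WT. Of the 17 windows of 1 kb that touch the interval, 16 were higher in TetTKO. Over all 1223855 windows 27.8% were higher, and of windows under 50% in WT 83.7% were. The exception was the window at 64113000 to 64113999, with 25.6% in TetTKO and 28.9% in WT.

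Within Tdh, 2 windows gained at least 30 points, where 0.67% of all windows and 6.76% of those under 50% in WT did. The window from 64114000 to 64114999 had 65.4% in TetTKO and 32.3% in WT over 10 CpGs. The window from 64123000 to 64123999 had 42.5% in TetTKO and 10.1% in WT over 11 CpGs, with 109 read calls in TetTKO and 90 in WT. Others came close to the rule. The window from 64112000 to 64112999 had 62.0% in TetTKO and 32.9% in WT over 30 CpGs, and the one from 64116000 to 64116999 had 38.6% in TetTKO and 9.64% in WT over 10 CpGs. The 3 windows from 64118000 to 64120999, at the middle of the gene, had 8.80%, 10.2% and 9.52% in TetTKO, and 0%, 2.03% and 1.38% in WT.

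The last kilobase of the Tdh interval stayed nearly unmethylated. The window from 64127000 to 64127999 had 1.85% in TetTKO and 0% in WT over 25 CpGs. In WT this was 0 of 188 read calls, which allows a share of up to 1.94% by the exact 95% interval. The next window outside the interval, from 64128000 to 64128999, had 40.6% in TetTKO and 20.9% in WT over 14 CpGs. Below the interval most windows were lower in TetTKO. Of 7 windows within 10 kb on the lower-coordinate side, 6 were lower, with a median difference of -10.2 points. Of all windows at 50% or more in WT 21.9% were higher, so mostly lower windows were the general pattern there. On the higher-coordinate side 3 of 6 counted windows were higher. The gain of the interval was thus not shared by the flank on the lower-coordinate side.

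The low-methylated stretch at this end of Tdh was shorter in TetTKO. It was measured as the run of CpGs around the gene's end whose mean over 5 neighbouring CpGs stayed under 20%, a measure chosen after the values were seen. It spanned 1446 bp and 35 CpGs in TetTKO, from 64126630 to 64128075, and 6195 bp and 86 CpGs in WT, from 64122156 to 64128350. The run stops where a few CpGs pass the threshold, so low windows further into the gene lie outside it. From 64116000 to 64121999 the windows had 0% to 14.3% in WT, and from 64118000 to 64120999 they had 8.80% to 10.2% in TetTKO. The length of the run is thus not the extent of all low methylation at Tdh. The TetTKO stretch was 23.3% of the WT length, or 10.4% with a threshold of 10% and 27.6% with a threshold of 30%. Over 12728 genes with a stretch in both libraries the median was 85.7%, and 2.81% fell under 1/3 of the WT length. Among the 344 genes whose WT stretch was at least 5 kb, the median was 67.6%, and 9.3% fell under 1/3. Stretches chosen as long in WT were therefore shortened more in general, and Tdh lay at the low end of both groups.

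**Figure D2:**
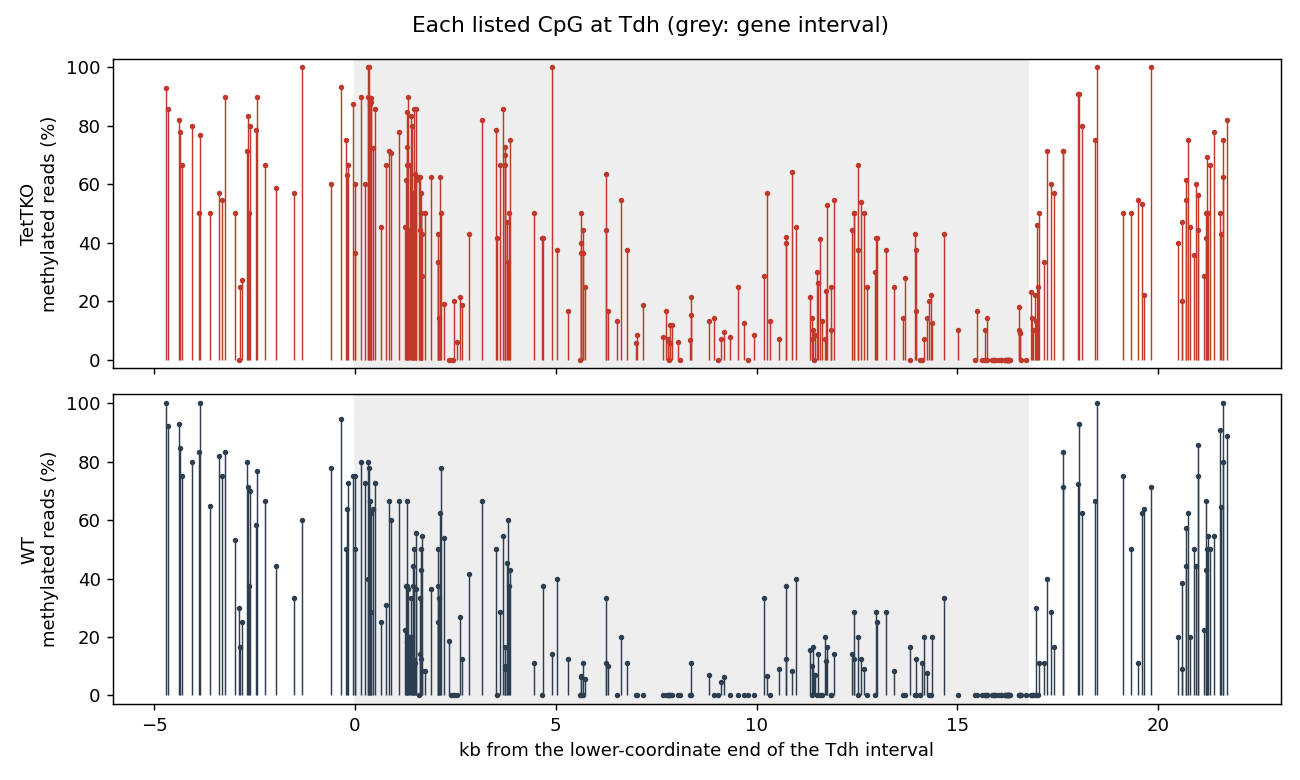
Methylated reads in percent at each listed CpG at Tdh, by distance in kb from the lower-coordinate end of the interval, for TetTKO (top) and WT (bottom); grey marks the gene interval. Between about 5 and 15 kb most CpGs are near 0 in WT and raised in TetTKO, while the CpGs of the last kilobase are near 0 in both.

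At Dppa5a, Dppa4, Fbxo15 and Dppa2, at least 1 end of the interval was under 10% methylated in both libraries. The expression files give no strand, so which end is the promoter was not set. Of ends under 10% in WT, 3.68% were at least 10 points higher in TetTKO. The low ends of these 4 genes were picked as under 10% in both libraries, so they could not show such a gain.

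Dppa5a was low at both ends and throughout its short interval. The lower-coordinate end had 1 methylated of 104 read calls in TetTKO and 0 of 84 in WT, and the higher-coordinate end had 8 of 206 in TetTKO and 0 of 176 in WT. By the exact 95% interval, the count of 0 in WT allows up to 4.30% and 2.07% at these ends. The difference at the lower-coordinate end was thus not detectable at this depth. At the higher-coordinate end the exact intervals were 1.69 to 7.51% in TetTKO and 0 to 2.07% in WT. They overlap at their edges, and an overlap is not a test of the difference. The low stretch around the gene was 6181 bp long in TetTKO and 6794 bp in WT, longer in WT than at 99.1% of genes. Wider around the gene, the window from 78207000 to 78207999 had 30.8% in TetTKO and 4.22% in WT over 8 CpGs, and the one from 78220000 to 78220999 had 33.6% in TetTKO and 12.6% in WT over 8 CpGs. Both fell short of 30 points. Ooep, a maternal KH-domain gene 8703 bp away, had 55.5 FPKM in TetTKO and 39.6 in WT.

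Dppa4 had 4 methylated of 170 read calls at its lower-coordinate end in TetTKO and 2 of 147 in WT. Its higher-coordinate end had 68.7% in TetTKO and 69.0% in WT over 18 CpGs. Inside the gene, the window from 48285000 to 48285999 had 16.6% in TetTKO and 1.43% in WT over 7 CpGs, with 97 read calls in TetTKO and 67 in WT. The low stretch at this end was 2106 bp in TetTKO and 3324 bp in WT. The whole interval stood at 50.5% in TetTKO and 46.9% in WT over 90 CpGs. Restricted to the 23 CpGs with at least 10 reads in both libraries, it stood at 49.5% in TetTKO and 33.6% in WT, a difference of 15.9 points, so the size of the gain at Dppa4 depended on which CpGs were used.

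Between Dppa4 and Dppa2 lay the only counted window outside Tdh that gained 30 points. At 48297000 to 48297999 it had 52.1% in TetTKO and 22.0% in WT, over 5 CpGs with 51 read calls in TetTKO and 29 in WT. With reads pooled the difference was 26.8 points, under the rule. The next window had 42.4% in TetTKO and 21.8% in WT over 7 CpGs, and another between the genes, from 48303000 to 48303999, had 22.1% in TetTKO and 11.2% in WT over 9 CpGs. The last of these lies within 10 kb of both genes and is counted once.

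Dppa2 had 7 methylated of 89 read calls at its lower-coordinate end in TetTKO and 9 of 95 in WT, and its higher-coordinate end had 63.1% in TetTKO and 59.8% in WT over 14 CpGs. The window from 48310000 to 48310999 had no methylated read in either library, of 40 read calls in TetTKO and 49 in WT. The window from 48308000 to 48308999, just outside the low end, was lower in TetTKO, at 15.9% in TetTKO against 36.6% in WT over 10 CpGs. Inside the gene the window from 48314000 to 48314999 was higher, at 56.1% in TetTKO against 34.5% in WT over 14 CpGs. The low stretch at Dppa2 was 3312 bp in TetTKO and 2900 bp in WT, the only one of the 5 that was longer in TetTKO at this threshold. With a threshold of 10% it was shorter in TetTKO, at 65.4% of the WT length.

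Fbxo15 had 2 methylated of 157 read calls at its lower-coordinate end in TetTKO and 1 of 116 in WT. Its higher-coordinate end had 81.3% in TetTKO and 88.9% in WT over 11 CpGs. Over the 390 CpGs of the interval, the longest of the 6, the means were 49.1% in TetTKO and 49.9% in WT. The most CpG-dense window, from 85121000 to 85121999 with 57 CpGs, had 2.26% in TetTKO and 1.23% in WT. It lies beside the end of 1700034H14Rik, a gene inside the Fbxo15 interval with 15.3 FPKM in TetTKO and 15.4 in WT. Reads from overlapping genes may not have been told apart. The windows from 85108000 to 85108999 and from 85126000 to 85126999 were higher in TetTKO, by 21.7 and 21.4 points. From 85128000 to 85131999, in contrast, the windows were lower, with differences of -22.5 to -5.47 points.

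Dppa3, like Tdh, had no end under 10%, and both its ends were over 50% in both libraries. Its lower-coordinate end had 57.2% in TetTKO and 64.4% in WT over 12 CpGs, and its higher-coordinate end had 84.3% in TetTKO and 77.4% in WT over 11 CpGs. The lowest methylation of the interval lay inside it. The window from 122578000 to 122578999 had 34.7% in TetTKO and 22.0% in WT over 32 CpGs, with 374 read calls in TetTKO and 539 in WT, and the one from 122577000 to 122577999 had 52.3% in TetTKO and 33.9% in WT over 13 CpGs. The interval as a whole stood at 49.2% in TetTKO and 38.9% in WT over 63 CpGs, a difference of 10.3 points. Of its CpGs, 43 were higher in TetTKO, 18 lower and 2 equal. Dppa3 and Tdh were thus the 2 of the 6 intervals past 10 points, where 2.8% of all intervals were at least 10 points higher. All 6 intervals were under 50% in WT, and of all intervals under 30% in WT 11.5% were that much higher. With only CpGs of at least 10 reads in both libraries, Dppa4 passed as well, at 15.9 points.

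Most windows in the flanks of Dppa3 were lower in TetTKO, unlike its interval. Of 7 counted windows within 10 kb on the lower-coordinate side 6 were lower, by a median of -16.3 points over the 7. On the other side 6 of 8 were lower. Over all windows 27.8% were higher and the median difference was -5.79 points. Of all windows at 50% or more in WT 21.9% were higher, so mostly lower windows were the general pattern too. The window from 122572000 to 122572999 had 50.3% in TetTKO and 81.4% in WT over 6 CpGs, the only one of all 6 genes to lose 30 points. With reads pooled its difference was -29.4 points, under the rule. Coverage of the Dppa3 interval was 11.4 reads per CpG in TetTKO and 15.1 in WT, the reverse of the other 5 genes, as on chromosome 6 as a whole.

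**Figure D3:**
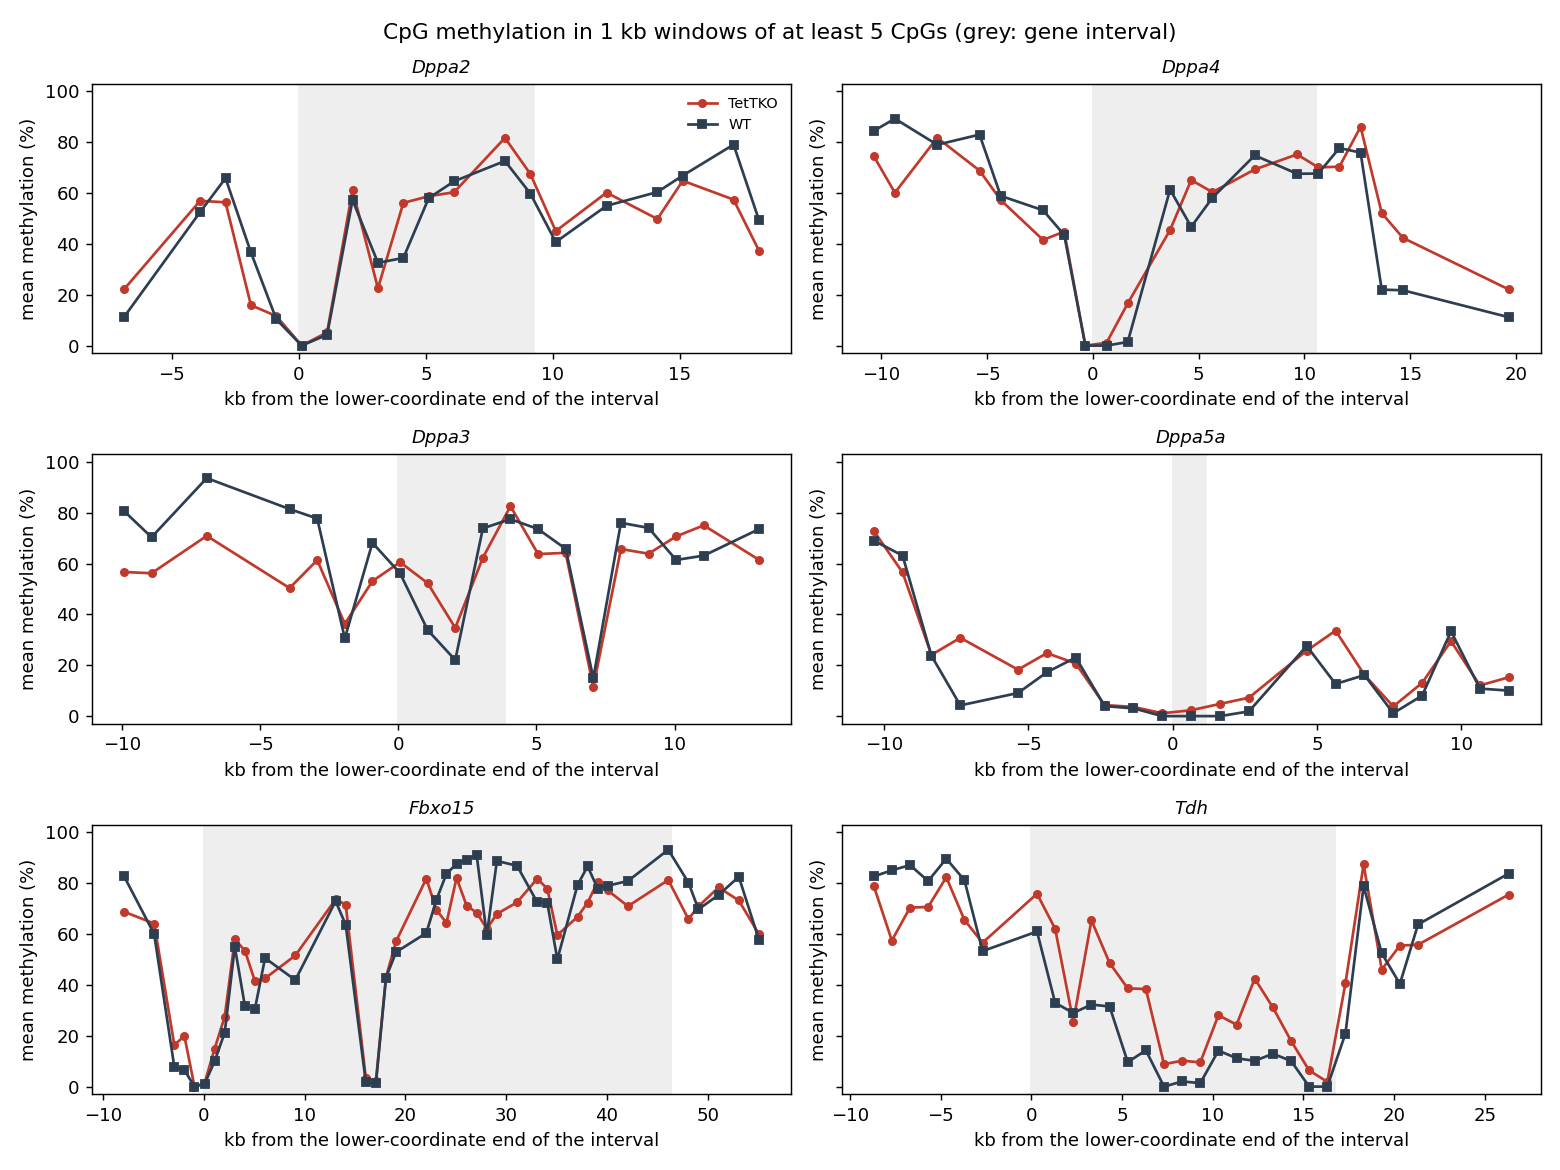
Mean CpG methylation in percent in 1 kb windows of at least 5 CpGs within 10 kb of each gene, by distance in kb from the lower-coordinate end of its interval (grey), for TetTKO (circles) and WT (squares). Dppa2, Dppa4, Dppa5a and Fbxo15 dip to near 0 at the lower-coordinate end and Tdh at the higher one in both libraries, Dppa3 does not reach 10%, and the TetTKO line lies above the WT line over 16 of 17 windows of Tdh.

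Together the 6 genes had 153 different windows with at least 5 CpGs within 10 kb. Of these, 3 gained and 1 lost at least 30 points, where 0.67% of all windows gained and 0.638% lost that much. In TetTKO 91 of the 153, or 59.5%, were higher, where 27.8% of all windows were. Many were low in WT. Of the 69 under 50% in WT, 58 or 84.1% were higher, close to the 83.7% of all such windows. Of the 84 at 50% or more in WT, 33 or 39.3% were higher, beside 21.9% of all such windows. The split was made after the values were seen.

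The enzyme that acts directly after Tdh was lower as well. Gcat, which splits the product of Tdh into glycine and acetyl-CoA, had 14.6 FPKM in TetTKO and 38.7 FPKM in WT, 2.66-fold lower, with a log2 difference of -1.35. It was the only one of 14 listed genes of threonine, glycine and one-carbon metabolism that differed 2-fold. Of all genes measured, 0.847% were at least 2-fold lower. The list median was 0.01 beside -0.01 over all genes. Amt and Gcsh, parts of the glycine cleavage system, had 57.4 and 146 FPKM in TetTKO, against 79.3 and 188 FPKM in WT, whereas Gldc, its decarboxylase, had 54.9 FPKM in TetTKO and 45.7 in WT. The most abundant of the list, Ahcy, which clears S-adenosylhomocysteine, had 266 FPKM in TetTKO and 248 in WT. Mthfd2, a mitochondrial folate enzyme on chromosome 6, had 52.9 FPKM in TetTKO and 93.3 in WT. Amt, Gcsh, Gldc and Mthfd2 were named after their values were seen.

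Unlike Tdh, the Gcat interval (chromosome 15, 78861304 to 78872961) was not more methylated, with 47.2% in TetTKO and 50.8% in WT over 167 CpGs. Its lower-coordinate end had 18 methylated of 451 read calls in TetTKO and 3 of 408 in WT, and its higher-coordinate end 55 of 860 in TetTKO and 31 of 785 in WT. Both ends were low in both libraries.

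Other stem cell markers went both ways and stayed mostly within 2-fold. Of 25 listed, 10 were higher and 15 lower, where 51% of all genes were lower, and their median was -0.06. Tcl1, a cofactor of the kinase Akt, was the only one to differ 2-fold, where 0.847% of all genes measured were 2-fold lower. It had 24.8 FPKM in TetTKO and 52.5 FPKM in WT. Pou5f1 was the most abundant. The naive-state factors Tfcp2l1 (11.0 FPKM in TetTKO and 21.1 in WT) and Esrrb (26.4 FPKM in TetTKO and 49.3 in WT) came next after Tcl1 and were named after their values were seen. Tdh thus lay among the lower markers, and Dppa2 near Sall4, the highest of the list with a log2 difference of 0.45 and named after its value was seen.

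Lists around the other genes showed few 2-fold differences, apart from the 2-cell genes. Of all genes measured, 1.77% were at least 2-fold higher and 0.847% at least 2-fold lower. Lists this short would therefore seldom hold any, and their counts of none are no result about them. Of the SCF partners of Fbxo15 none of 6 differed 2-fold, with Skp1a, the adaptor that holds the F-box, at 528 FPKM in TetTKO and 588 in WT. Of the proteins of maintenance methylation none of 5 differed 2-fold, with the sliding clamp gene Pcna the most abundant, at 468 FPKM in TetTKO and 568 in WT. Uhrf1, which Dppa3 can displace, had 71.8 FPKM in TetTKO and 109 FPKM in WT, 1.52-fold lower, and was named after its values were seen. Of 12 germ cell genes measured none differed 2-fold on the scale with the pseudocount, with Ifitm1 the most abundant at 81.2 FPKM in TetTKO and 117 in WT. Of the KH-domain relatives of Dppa5a, Ooep and Khdc1b alone reached 1 FPKM, and Dppa1, which shares only the name, had 0.02 FPKM in TetTKO and 0.01 in WT.

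Genes of the 2-cell embryo downstream of Dppa2 and Dppa4 were the exception. Of 16 listed, 11 reached 1 FPKM and 10 of these were at least 2-fold higher, where 1.77% of all genes measured were. The median of the 11 was 2.07, or 1.42 over all 16. The list was chosen with earlier results of these data known. Dux, their activator, had 1.76 FPKM in TetTKO and 0.12 in WT. Gm2022 was the most abundant, with 20.5 FPKM in TetTKO and 3.56 in WT. Of the others at least 2-fold higher, Gm5039, Zscan4d, Gm8300, Zscan4a, Zscan4f and Zscan4c had 8.59 to 15.1 FPKM in TetTKO and 1.35 to 2.51 in WT, and Tdpoz3 and Zfp352 had 2.53 and 1.59 FPKM in TetTKO, and 0.21 and 0.24 in WT. The other gene that reached 1 FPKM, Usp17l5, had 1.08 FPKM in TetTKO and 0.12 in WT. Dux, Tdpoz3, Zfp352 and Usp17l5, 4 of the 11, reached 1 FPKM in TetTKO alone, so by that filter they had to be higher there. Many are near-identical copies between which the split of reads is uncertain. Dppa2 and Dppa4 themselves differed by 1.34-fold upward and 1.30-fold downward in the same libraries.

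**Figure D4:**
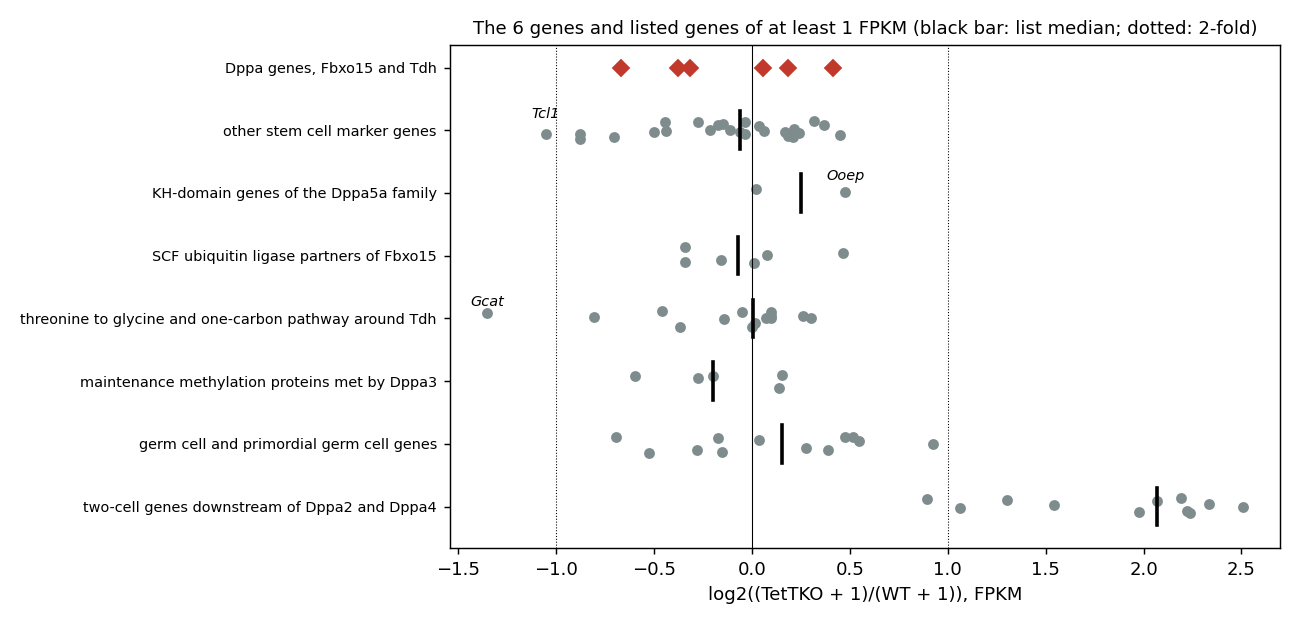
Log2 differences in FPKM of Dppa2, Dppa3, Dppa4, Dppa5a, Fbxo15 and Tdh (diamonds, top row) and of listed genes with at least 1 FPKM (circles), with the median of each list as a black bar and dotted lines at 2-fold. Gcat at -1.35 and Tcl1 at -1.05 lie left of the lower line, and the 2-cell genes lie right with a median of 2.07.

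The nearest genes on either side of the 6 also differed by less than 2-fold on the scale with the pseudocount. Of all genes measured, 1.77% were at least 2-fold higher and 0.847% at least 2-fold lower. Beside Tdh, Mtmr9 had 17.1 FPKM in TetTKO and 17.5 in WT, and Fam167a, on its other side, 0.15 FPKM in TetTKO and 0.43 in WT. Beside Fbxo15, Cyb5, a cytochrome gene, had 117 FPKM in TetTKO and 157 in WT, a log2 difference of -0.42. Gsta2, next to Dppa5a, had 0.05 FPKM in both libraries, and Gm5485, next to Dppa2, was listed at 0 in both. The lower RNA of Tdh was thus not shared by Mtmr9, its nearest expressed neighbour.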

How the data were processed

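E14Tg2a RNA-seq libraries (rRNA-depleted, directional, single reads of 50 bp) and WGBS libraries (DNA sheared to about 350 bp, 5 PCR cycles, read pairs of 110 bp) were described as such per the labels' protocols. The authors deposited FPKM per gene, rounded to 2 decimals, and per the submitters' processing notes the tools were TopHat2 2.0.2 and Cufflinks 2.0.2 with the mm9 build. Neither the read depth of these libraries nor their gene models were given. For WGBS the authors deposited, per CpG, the fraction methylated and the counts of methylated and all reads, listed at 5 or more reads in both libraries. Bismark 0.7.9, Bowtie, Trim Galore and SAMtools are named in the same notes. The lambda spike-in was not used here, so bisulfite conversion was not measured.

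With pandas 2.3.3 and numpy 2.4.6, FPKM of 1 symbol was summed over rows, and log2 differences used a pseudocount of 1 FPKM, which understates differences of low genes. Short RNA genes under 200 bp were to be left out, and 0 were found. Start positions in the expression files count from 0 and were raised by 1. Methylation is the mean over CpGs; exact intervals (scipy 1.17.1) use pooled reads. Coverage per chromosome left out CpGs above 50 reads. Calls were by size only: 2-fold, 10 points for intervals and ends, 30 points for windows. The calculations were tested on simulated data. The 6 genes, the gene lists and the size rules were chosen with earlier results of these data known. Genes named were the 6, each list's most abundant and 2-fold members, the nearest neighbours within 100 kb, and the nearest in level; exceptions are stated. Alternatives were the pseudocount, centring, low-value filters, chromosome 6, coverage, pooling, and the limits of ends and windows.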

Additional observations from a re-analysis of the deposited data

How the results depend on the processing

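Of 222 values recomputed under alternatives, 170 were labelled close to the reported one, 37 moved and 15 changed sign. The label was broad, so 170 is not a count of unchanged values. It included the higher-coordinate end of Fbxo15, at -7.56 points and at -13.0 with 2000 bp outside and 1000 bp inside. It also included the median of the KH-domain genes, at 0.25 and at 0.01 with all listed members. Taking only the highest row of a symbol gave the reported values exactly, and those values count among the 170. The log2 differences of Dppa2, Dppa4, Dppa5a, Fbxo15 and Tdh kept their sign under both centrings. A pseudocount cannot change a sign and these genes had 1 row each, so those alternatives could not test it. The Tdh interval and both its ends stayed higher in TetTKO under all alternatives run. No paired analysis was possible because each group had 1 library. Precision is limited by coverages of about 10 reads per CpG, and by the unknown depth of the RNA libraries; where no value shows a cause, the cause was not tested.

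Counts of genes at least 2-fold higher and lower were 479 and 214 with a pseudocount of 0.1 FPKM, 40 and 28 with 5 FPKM, and 119 higher among genes of at least 5 FPKM, which has fewer genes. The median of the 2-cell genes was 1.14 with 5 FPKM and 1.42 with all listed members. Centred on its chromosome, Dppa3 was at 0.11 and the median of the SCF partners at 0.028, and that median was 0.011 without chromosome 6. With coverage of at least 10, fewer CpGs remained. The interval differences were then 15.7 points for Dppa3, 15.9 for Dppa4 and -3.83 for Fbxo15, and the end differences -11.5 for Dppa2 (lower-coordinate end, 2 CpGs), -23.2 for Dppa3 (lower, 3 CpGs), 5.37 for Dppa4 (higher) and 8.04 for Dppa5a (higher). Of the windows of the 6 genes 44 were then counted, 1 past 30 points upward and 0 downward, and 6 of 7 counted Tdh windows were higher. Over the genome 2045 ends were higher and 1897 lower, and 2355 windows higher and 591 lower. With reads pooled, the lower-coordinate end of Dppa2 stood at -1.61 and the higher-coordinate end of Dppa4 at 0.28 points, and 0 windows of the 6 genes lost 30 points. Centred on the median of all features, the interval of Fbxo15 stood at 2.13 and that of Tdh at 18.4 points, 6 windows of the 6 genes gained and 0 lost, and over the genome 1266 intervals and 17513 windows were higher and 421 and 1617 lower. Windows shifted by 500 bp gave 1 gain and 0 losses. Windows of at least 10 CpGs gave 4588 gains and 348 losses over the genome.

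With ends cut to 500 bp outside and 200 bp inside, Dppa3 stood at 4.07 points (lower) and -4.48 (higher), Dppa4 at 9.40 (higher) and Tdh at 1.40 (lower). With 2000 bp outside and 1000 bp inside, Dppa2 stood at -3.86 (lower), Dppa3 at 0.36 (lower) and -6.07 (higher), Dppa4 at 1.97 (higher) and Fbxo15 at 5.52 (lower). The lower-coordinate end of Dppa2 stood at 8.57 points with the narrower limits. That end, both ends of Dppa3 and the higher-coordinate end of Dppa4 therefore show no settled direction. The length of the Tdh stretch was 10.4% of that in WT at a threshold of 10%, and that of Dppa5a was 163% at a threshold of 30%. The measure of stretches and its thresholds were chosen after seeing the data.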

Other observations

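With 2 RNA libraries, likeness between genes can only be read from their pair of levels. By Euclidean distance on log2(FPKM + 1), the gene closest to Tdh was Lsm5, an RNA-processing Sm-like protein, with 227 FPKM in TetTKO and 327 FPKM in WT, at a distance of 0.13. The closest to Dppa5a was Rps3a, a ribosomal protein gene, with 3292 FPKM in TetTKO and 3149 FPKM in WT, at 0.04. Ung, a uracil DNA glycosylase gene, lay closest to Dppa3 with 37.7 FPKM in TetTKO and 46.6 in WT, and Arpc3, of the Arp2/3 complex, closest to Dppa4 with 131 FPKM in TetTKO and 166 in WT. Eif4ebp1, a translation repressor gene, lay closest to Fbxo15 with 184 FPKM in TetTKO and 171 FPKM in WT, and 2810407C02Rik closest to Dppa2 with 75.0 FPKM in TetTKO and 58.1 in WT. With so many genes, a close pair of levels is common and says nothing of shared control.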
